A study of Mus musculus with 6 samples.

Results

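The transcripts described here encode NRF2 (*Nfe2l2*), its inhibitor KEAP1 (*Keap1*) and 8 enzymes that handle superoxide, peroxides and glutathione, namely *Nqo1*, *Gclc*, *Txnrd1*, *Sod1*, *Sod2*, *Cat*, *Gpx1* and *Prdx3*. They were chosen by gene symbol for their role in antioxidant defence, with earlier results of these data known but by a rule that used no measured value, and all 10 symbols were present among the 20632 genes of the deposited expression table. All 10 passed the filter on low counts and belonged to the 12116 genes that were compared between genotypes. RNA-seq libraries were prepared from hind limb skeletal muscle (TA, EDL, GA, SOL and Q combined) of 3 Baf155WT mice and 3 Baf155ΔMF mice, 1 library per mouse. Baf155ΔMF mice carry floxed alleles of Baf155 (*Smarcc1*), a core subunit of the SWI/SNF chromatin remodeling complex, together with the *MCK*-Cre transgene, and GEO labels them Baf155 -/-. Baf155WT mice carry the floxed alleles alone and are labelled wild type in GEO, so that the allele is shared by both groups and Cre is not. All 6 mice were on a C57BL/6 background (C57BL/6J in the study's methods), male, 3 months old and had not been exercised. *MCK*-Cre acts in skeletal myofibers and in the heart, so blood, vessel, connective tissue and immune cells within the dissected muscle keep the gene.

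NRF2 is a transcription factor that is held at low abundance by KEAP1, an adaptor that presents it to a CUL3 ubiquitin ligase for degradation. Oxidants and electrophiles modify cysteines of KEAP1, after which NRF2 accumulates, pairs with a small MAF protein and binds antioxidant response elements in genes such as *Nqo1*, *Gclc* and *Txnrd1*. Contracting muscle produces superoxide in mitochondria and at membranes, and superoxide dismutases, catalase, glutathione peroxidases and peroxiredoxins convert it to water in successive steps. NRF2 is controlled mainly at the protein level, so the abundance of its transcript is not a measure of its activity.

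Each library held between 8426022 and 12469335 counts. The sample titles begin with MS13 (1 Baf155WT and 2 Baf155ΔMF mice), MS14 (1 Baf155ΔMF mouse) or MS15 (2 Baf155WT mice), and the labels do not explain these prefixes, so that outside MS13 prefix and genotype cannot be told apart. *Smarcc1* itself had 23.4, 19.5 and 17.0 CPM (TMM-normalized counts per 1000000) in Baf155WT and 7.05, 6.54 and 7.72 CPM in Baf155ΔMF muscle, a log2 fold change of -1.49 (adjusted p = 0.00907, edgeR) that was -1.76 between the MS13 mice. It shares 123 exonic bases with *Dhx30* on the other strand. The genotype labels and the targeted transcript therefore went together in all 6 libraries. Transcripts of skeletal myofibers were abundant everywhere, with a summed level of 133800 to 141200 CPM over 8 markers in Baf155WT and 128400 to 133400 CPM in Baf155ΔMF muscle. The first principal component (43.3% of the variance) set the MS15 Baf155WT libraries (24.98 and 22.5) apart from the MS13 Baf155WT library (-13.4), which lay beside the MS13 Baf155ΔMF libraries (-17.1 and -15.4). The MS14 Baf155ΔMF library (-1.56) lay between the MS13 and the MS15 libraries. Because of this pattern the difference between the MS13 mice alone is given beside the pooled value of each of the 10 genes, without a test of its own. A fit with the title prefix as a covariate takes its genotype difference from the MS13 mice only, because MS14 and MS15 each hold 1 genotype. That fit therefore repeats the MS13 contrast and is no separate support for it. Below, values are listed in the order MS13, MS15, MS15 for Baf155WT and MS13, MS13, MS14 for Baf155ΔMF muscle.

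None of the 10 transcripts differed between genotypes at an adjusted p under 0.05 in edgeR, where 0.0248% of all genes tested did. None did with DESeq2 or limma-voom either. With edgeR 0 of the 10 had an unadjusted p under 0.05, beside 7.95% of all genes tested. With limma-voom there were also 0, and with DESeq2 there was 1, *Gpx1* (unadjusted p = 0.0393, adjusted p = 0.942). The 3 Baf155ΔMF values lay below every Baf155WT value in 0 of the 10 genes (5.57% of all genes tested) and above every Baf155WT value in 0 of the 10 (5.2% of all genes tested). Of the 10 log2 fold changes 5 were below 0 and 5 above, with a median of -0.01, and the median over all genes tested was -0.00095. The median size of a log2 fold change, ignoring its sign, was 0.0952 for these genes and 0.123 for all genes. The fold changes thus lay in a narrow range from -0.37 (*Gpx1*) to 0.13 (*Nfe2l2*) on the log2 scale.

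**Figure D1:**
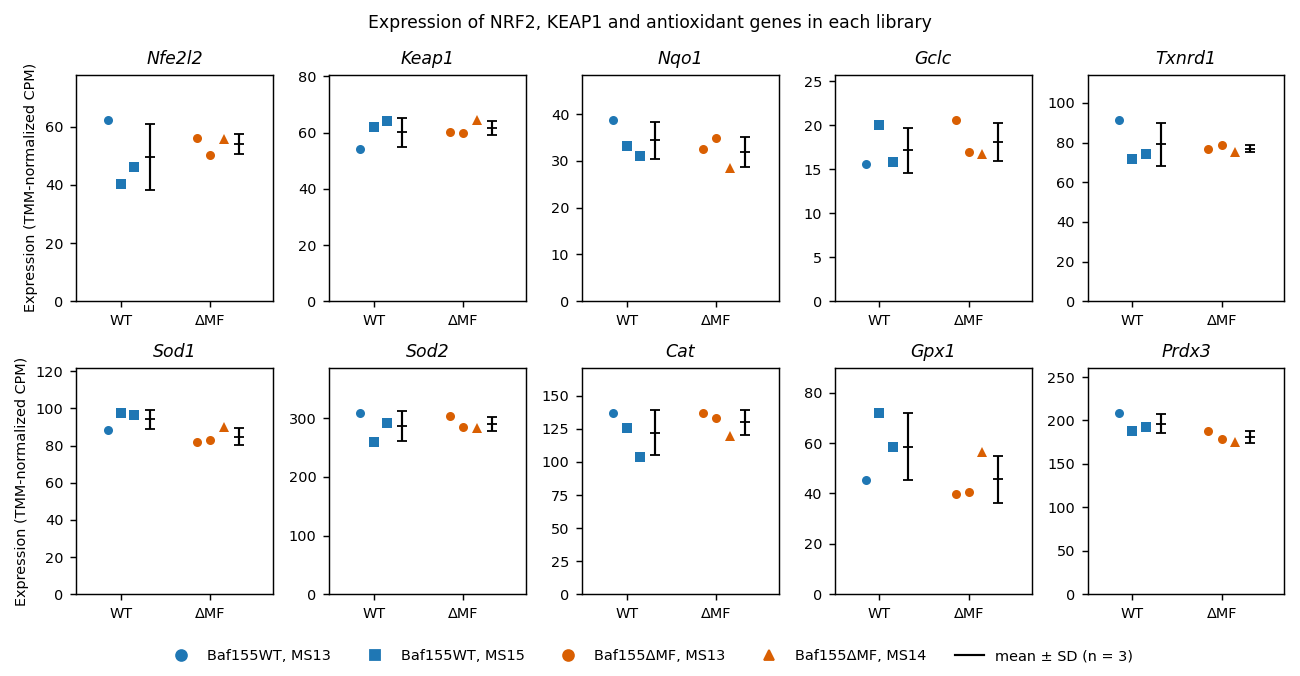
Expression of the 10 genes in TMM-normalized CPM (vertical axes, each starting at 0) in 3 Baf155WT (WT) and 3 Baf155ΔMF (ΔMF) libraries, with 1 symbol per mouse whose shape marks the title prefix and a bar for the mean ± SD (n = 3). The genotypes overlap in all 10 genes, and the widest spread relative to the mean is that of *Gpx1* and of *Nfe2l2* in Baf155WT muscle.

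*Nfe2l2* lies on chromosome 2 of GRCm38, from 75675513 to 75704641 on the minus strand. It had 62.4, 40.4 and 46.1 CPM in Baf155WT muscle and 56.3, 50.3 and 55.8 CPM in Baf155ΔMF muscle. The Baf155WT mice held both the highest and the lowest value, and all 3 Baf155ΔMF mice lay between them. Its mean was 49.6 ± 11.4 CPM (SD, n = 3) against 54.1 ± 3.34 CPM (n = 3), a log2 fold change of 0.13 (95% interval -0.19 to 0.44, adjusted p = 0.806 from edgeR), or a fold between 0.878 and 1.36. Between the MS13 mice the difference had the opposite sign, with a log2 fold change of -0.23. The fit without the MS13 Baf155WT mouse gave 0.32 (adjusted p = 0.0651). With the prefix as a covariate, which repeats the MS13 contrast, the value was again -0.23. The sign of the *Nfe2l2* difference thus rested on which Baf155WT mice were used.

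*Keap1* (chromosome 9, from 21229730 to 21239361) had 54.3, 62.0 and 64.1 CPM in Baf155WT muscle and 60.3, 60.0 and 64.6 CPM in Baf155ΔMF muscle. This is the reverse of *Nfe2l2*, since the MS13 Baf155WT mouse was the lowest of the 6 for *Keap1* and the highest for *Nfe2l2*. The log2 fold change of *Keap1* was 0.03 (95% interval -0.17 to 0.24, adjusted p = 0.926), and it was 0.15 between the MS13 mice. The interval corresponds to a fold between 0.888 and 1.18, and the sign turned when libraries were scaled by their size only (-0.03). *Keap1* shares 510 exonic bases with an antisense transcript on the other strand, which the stranded library kit would separate only if counting used the strand. Whether it did is not given in the sources used here.

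NRF2 with its MAF partner recognizes a DNA core, TGACNNNGC. The 250 bases before and 50 bases after the start of transcription (RefSeq, GRCm38.p6) were searched on both strands. At least 1 such window held the core in 3 of the 9 genes with a window, and in 14% of the 27025 genes with a window overall. *Gclc* had no entry. The 3 matches are shown because they are the stretches of these promoters that carry the letters NRF2 is known to bind. The core, or its reverse complement, is in capitals, and only bases before the start are printed:
Nfe2l2, chr2:75704865-75704913, minus strand: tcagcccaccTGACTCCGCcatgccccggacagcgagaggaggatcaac
Txnrd1, chr10:82859084-82859152, plus strand: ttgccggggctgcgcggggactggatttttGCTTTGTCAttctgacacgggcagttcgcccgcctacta
Sod1, chr16:90220676-90220744, plus strand: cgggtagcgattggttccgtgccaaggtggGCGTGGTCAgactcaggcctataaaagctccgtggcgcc
The core began 240 bases before the start in *Nfe2l2*, 92 bases before 1 of the 3 annotated starts of *Txnrd1*, and 56 bases before the start in *Sod1*. A match describes letters and not binding, and a window without one does not bear on sites that lie elsewhere in a gene. The transcripts with and without the core showed no common direction, as *Nfe2l2* had a log2 fold change of 0.13, *Txnrd1* of -0.04 and *Sod1* of -0.15.

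Among the enzymes that are classical NRF2 targets, *Nqo1* encodes a quinone reductase that keeps quinones from redox cycling. It lies on chromosome 8 from 107388225 to 107403206. *Nqo1* had 38.8, 33.2 and 31.1 CPM in Baf155WT muscle and 32.5, 34.9 and 28.5 CPM in Baf155ΔMF muscle. The highest value was that of the MS13 Baf155WT mouse, and the other 5 mice spanned 28.5 to 34.9 CPM without order by genotype. The log2 fold change was -0.10 (95% interval -0.36 to 0.16, adjusted p = 0.809), and -0.20 between the MS13 mice.

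*Gclc* (chromosome 9, from 77754535 to 77794485) encodes the catalytic subunit of glutamate-cysteine ligase, the rate-limiting step of glutathione synthesis. It was the lowest of the 10 transcripts, with 15.5, 20.05 and 15.8 CPM in Baf155WT and 20.6, 16.9 and 16.7 CPM in Baf155ΔMF muscle. One mouse of each genotype stood near 20 CPM and the other four mice lay between 15.5 and 16.9 CPM. These levels rest on 143 to 262 counts per library. The log2 fold change was 0.07 (95% interval -0.23 to 0.38, adjusted p = 0.886), and 0.26 between the MS13 mice.

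*Txnrd1* (chromosome 10, from 82833951 to 82897712) encodes cytosolic thioredoxin reductase, a selenoprotein that regenerates reduced thioredoxin. It had 91.4, 71.7 and 74.2 CPM in Baf155WT muscle and 76.8, 78.8 and 75.1 CPM in Baf155ΔMF muscle. As with *Nfe2l2*, the 3 Baf155ΔMF mice lay close together and between the extremes of Baf155WT mice. Its coefficient of variation was 13.6% in Baf155WT and 2.43% in Baf155ΔMF muscle. The log2 fold change was -0.04 (95% interval -0.27 to 0.19, adjusted p = 0.926), and it was -0.23 between the MS13 mice and 0.08 without the MS13 Baf155WT mouse. With the prefix as a covariate, which repeats the MS13 contrast, the log2 fold change of *Txnrd1* was again -0.23.

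**Figure D2:**
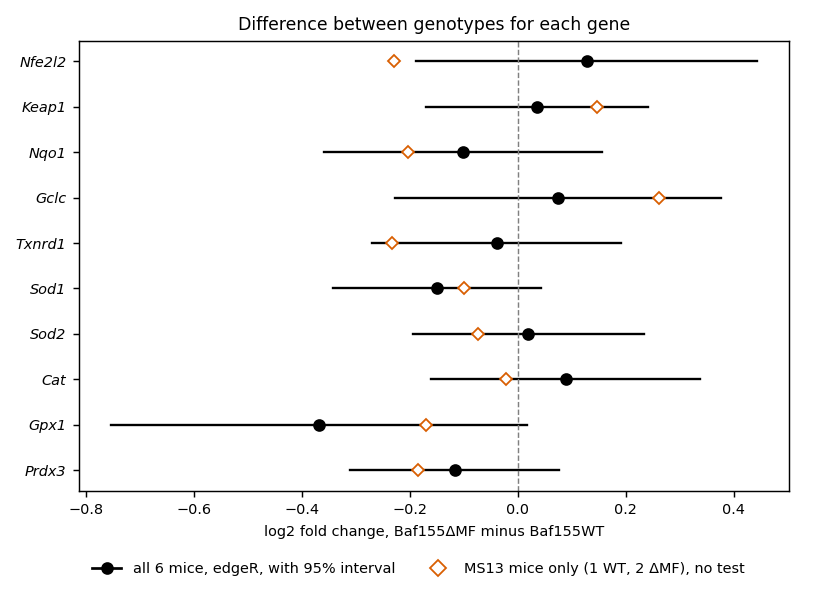
Log2 fold change of each gene (Baf155ΔMF minus Baf155WT, horizontal axis), with filled circles and lines for the edgeR estimate and its 95% interval over all 6 mice, and open diamonds for the MS13 mice alone (1 Baf155WT and 2 Baf155ΔMF mice, no test). Every interval includes 0, the widest is that of *Gpx1* (-0.75 to 0.02), and the diamonds of *Nfe2l2*, *Sod2* and *Cat* lie on the other side of 0 from their circles.

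Both intracellular superoxide dismutases, which convert superoxide to hydrogen peroxide, were expressed in every library. *Sod1*, the copper-zinc enzyme of the cytosol, lies on chromosome 16 from 90220754 to 90226329. It had 88.2, 97.6 and 96.5 CPM in Baf155WT and 81.8, 82.8 and 89.9 CPM in Baf155ΔMF muscle. Its genotypes overlapped through 1 mouse each, the MS13 Baf155WT mouse (88.2 CPM) and the MS14 Baf155ΔMF mouse (89.9 CPM). The means were 94.1 ± 5.10 and 84.8 ± 4.45 CPM (SD, n = 3 each), a log2 fold change of -0.15 (95% interval -0.34 to 0.04, adjusted p = 0.650). Between the MS13 mice it was -0.10, and over 15 alternative fits it stayed between -0.21 and -0.10 with adjusted p-values from 0.193 to 0.998.

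*Sod2*, the manganese enzyme of the mitochondrial matrix (chromosome 17, from 13006846 to 13040063), had the most counts of the 10 genes. Its values were 309, 259 and 292 CPM in Baf155WT muscle and 303, 284 and 283 CPM in Baf155ΔMF muscle. The means of 287 ± 25.6 and 290.3 ± 11.4 CPM differed by a log2 fold change of 0.02 (95% interval -0.20 to 0.23, adjusted p = 0.961), the smallest difference of the 10. The interval corresponds to a fold between 0.874 and 1.18. It was -0.07 between the MS13 mice, and scaling by library size only turned its sign (-0.04). *Sod2* was also the only one of the 10 whose estimated counts had a fractional part, in 6 of 6 libraries. In the GENCODE M21 transcripts it shares a stretch of 3110 bases at 98.3% identity with *Rps6ka2*, so some of its reads can be assigned to either gene.

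Hydrogen peroxide is removed by catalase, glutathione peroxidases and peroxiredoxins. *Cat*, which encodes the peroxisomal catalase, lies on chromosome 2 from 103453849 to 103485160. It had 137, 126 and 104 CPM in Baf155WT muscle and 137, 133 and 119 CPM in Baf155ΔMF muscle. The MS13 mice of both genotypes were the 3 highest, at 133 to 137 CPM, and the lowest was 1 of the MS15 Baf155WT mice. The log2 fold change was 0.09 (95% interval -0.16 to 0.34, adjusted p = 0.829) and -0.02 between the MS13 mice.

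*Prdx3*, the mitochondrial peroxiredoxin (chromosome 19, from 60864051 to 60874556), had 209, 188 and 192 CPM in Baf155WT and 188, 179 and 176 CPM in Baf155ΔMF muscle. Only the highest Baf155ΔMF and the lowest Baf155WT mouse overlapped, both at 188 CPM. The means were 196 ± 10.99 and 181 ± 6.43 CPM (SD, n = 3 each), a log2 fold change of -0.12 (95% interval -0.31 to 0.08, adjusted p = 0.703) that was -0.18 between the MS13 mice. Its interval corresponds to a fold between 0.806 and 1.05. Over 15 alternative fits it ran from -0.18 to -0.07, with an unadjusted p of 0.0475 (adjusted p = 0.604) when libraries were scaled by size only.

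*Gpx1*, the glutathione peroxidase of cytosol and mitochondria and, like *Txnrd1*, a selenoprotein, lies on chromosome 9 from 108338903 to 108340343. It had the largest fold change and the largest spread of the 10. Its values were 45.2, 72.0 and 58.6 CPM in Baf155WT muscle and 39.8, 40.4 and 56.5 CPM in Baf155ΔMF muscle. The MS13 mice of both genotypes had the 3 lowest values and the MS15 Baf155WT mice the 2 highest, while the MS14 Baf155ΔMF mouse lay just below the latter. The means of 58.6 ± 13.4 and 45.6 ± 9.46 CPM (SD, n = 3 each) gave a log2 fold change of -0.37 (95% interval -0.75 to 0.02, unadjusted p = 0.0588, adjusted p = 0.622), or a fold between 0.593 and 1.01. Between the MS13 mice the log2 fold change was -0.17.

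The call for *Gpx1* depended on 1 library. Without the MS13 Baf155WT mouse its log2 fold change was -0.52 (adjusted p = 0.0332), in a fit in which 23.8% of all genes had an unadjusted p under 0.05. Without 1 of the MS15 Baf155WT mice it was -0.19 (adjusted p = 0.988). With the prefix as a covariate, which repeats the MS13 contrast, it was -0.17. It was below 0 in all 15 alternative fits, as were *Nqo1*, *Sod1* and *Prdx3*, whereas the other six genes changed sign in at least 1.

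Because CPM depends on transcript length, levels of different genes were compared as CPM per kilobase of the principal protein-coding transcript in GENCODE M21. *Sod1* (128 to 152 CPM per kilobase over the 6 libraries) and *Prdx3* (119 to 141) were the most abundant, and their ranges overlapped. *Sod2* (44.2 to 52.8), *Gpx1* (37.2 to 67.2) and *Cat* (39.6 to 52.5) followed with overlapping ranges. *Txnrd1* (20.3 to 25.9), *Nqo1* (18.4 to 24.96) and *Nfe2l2* (16.3 to 25.2) also overlapped, and *Keap1* (15.03 to 17.9) overlapped *Nfe2l2* only. *Gclc* was lowest, at 4.54 to 6.02 CPM per kilobase. The order depends on the length used. With the union of all annotated exons as the length, the mean over the 6 libraries was 128 CPM per kilobase for *Prdx3*, 48.2 for *Cat*, 36.1 for *Gpx1*, 28.8 for *Sod2*, 22.5 for *Sod1* and 11.01 for *Txnrd1*, and *Gclc* was again lowest at 4.68.

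The 10 transcripts did not all rank the 6 libraries in the same order. The ratio of the highest to the lowest of the 6 libraries was 1.81 for *Gpx1* and 1.54 for *Nfe2l2*, and between 1.19 and 1.36 for the other eight genes. In log2 CPM centred on each gene's mean, *Txnrd1* and *Sod2* were closest to each other, with a root mean square difference of 0.0784 over the 6 libraries. *Prdx3* was closest to *Sod2* (0.0810), *Nqo1* to *Txnrd1* (0.0863) and *Nfe2l2* to *Txnrd1* (0.139). In each of *Nfe2l2*, *Nqo1*, *Txnrd1*, *Sod2*, *Cat* and *Prdx3* the MS13 Baf155WT mouse had the highest value of all 6. *Gpx1* stood farthest from the rest, its nearest partner being *Sod1* at 0.220. This measure grows with the size of a gene's variation, so the distance of *Gpx1* also reflects its larger spread.

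*Gpx1* and *Sod1* ranked the 6 libraries in the same order, and this was also the order of the summed leukocyte and macrophage markers, which was noticed after the values were seen. Those markers (*Ptprc*, *Cd68*, *Adgre1*, *Csf1r*, *Lyz2*, *Cd74*, *Itgam* and *Mrc1*) summed to 454 and 356 CPM in the MS15 Baf155WT libraries and to 166 CPM in the MS13 Baf155WT library. In Baf155ΔMF muscle they summed to 155 and 161 CPM (MS13) and 234 CPM (MS14). All 8 had log2 fold changes below 0, from -1.27 to -0.79, with unadjusted p-values under 0.05 and adjusted p-values of 0.601, and none was at 0 counts in all libraries. Between the MS13 mice their log2 fold changes ran from -0.20 (*Cd68*) to 0.19 (*Ptprc*). The part of these cells in the *Gpx1* and *Sod1* values was not tested, and in bulk tissue fewer cells of a type and less RNA per cell cannot be told apart.

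**Figure D3:**
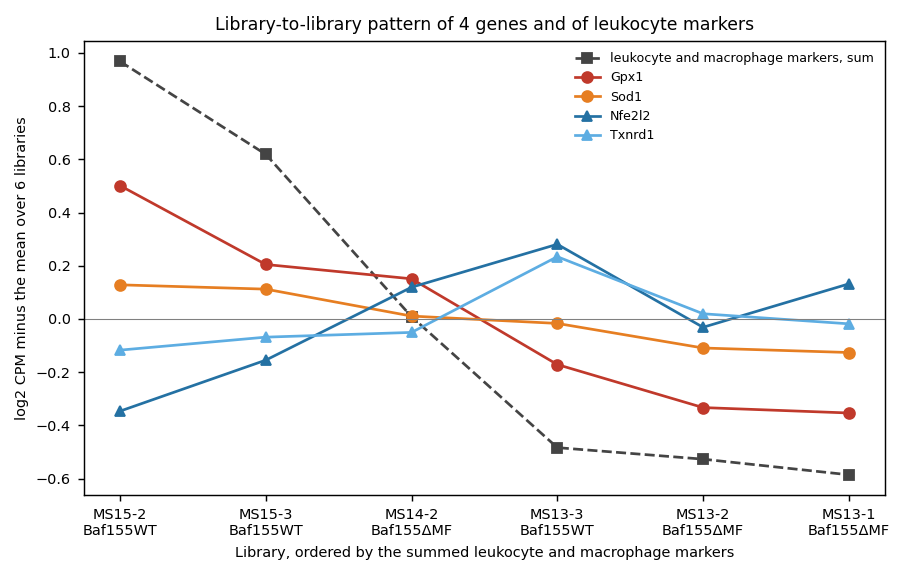
Log2 CPM minus the mean over the 6 libraries (vertical axis) for *Gpx1*, *Sod1*, *Nfe2l2*, *Txnrd1* and the sum of 8 leukocyte and macrophage markers (dashed), with libraries ordered by that sum (horizontal axis). *Gpx1* and *Sod1* go down from left to right with the markers, while *Nfe2l2* and *Txnrd1* are lowest in the MS15-2 library and highest in the MS13-3 library.

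Other cell types were followed in the same way. Endothelial markers summed to 206 to 266 CPM in Baf155WT and 265 to 289 CPM in Baf155ΔMF muscle, with *Kdr* (log2 fold change 0.41) and *Pecam1* (0.32) at unadjusted p under 0.05. *Cdh5* (0.29), *Tek* (0.04) and *Emcn* (0.01) were above that limit. *Kdr* was at 0.29, *Pecam1* at 0.07, *Cdh5* at -0.01, *Tek* at 0.001 and *Emcn* at -0.12 between the MS13 mice. Red cell markers summed to 623 to 1230 CPM against 371 to 806 CPM. In them *Hbb-bt* (-0.91), *Alas2* (-0.80) and *Hbb-bs* (-0.70) were at unadjusted p under 0.05, and 4 of 9 were too low to be tested. *Hba-a1* (-0.56) and *Hba-a2* (-0.55) were above that limit. *Hbb-bt* was at -0.85, *Alas2* at -0.76 and *Hbb-bs* at -0.78 between the MS13 mice. Erythrocytes are rich in catalase, peroxiredoxin 2 and glutathione peroxidase 1 as proteins. The transcripts had log2 fold changes of 0.09 (*Cat*), -0.14 (*Prdx2*) and -0.37 (*Gpx1*) over all mice. Fibroblast markers summed to 1575 to 1954 against 1415 to 2148 CPM (*Dcn* -0.43 and *Lum* -0.41 at unadjusted p under 0.05). Of the other three, *Pdgfra* had a log2 fold change of -0.26, while *Col1a1* (0.36) and *Col3a1* (0.31) were above 0, and between the MS13 mice *Dcn* was at -0.16 and *Lum* at -0.01. The summed adipocyte markers were at 175 to 230 against 184 to 200 CPM (*Adipoq* -0.86 and *Retn* -1.27 at unadjusted p under 0.05). The rest of that list were *Cfd* (-0.53), *Plin1* (-0.40) and *Fabp4* (0.06), above that limit. Between the MS13 mice *Adipoq* was at -0.22, *Retn* at -0.30 and *Plin1* at -0.06, while *Cfd* was at 0.21 and *Fabp4* at 0.22. Slow fiber markers summed to 519 to 791 against 657 to 771 CPM and nerve markers to 59.9 to 70.7 against 57.9 to 69.2 CPM, with 0 genes at that limit. Among the myofiber markers *Myh1* (0.49) and *Myh2* (0.38), which encode fast myosins and share reads with other myosin genes, were at unadjusted p under 0.05. *Myh1* was at 0.28 and *Myh2* at 0.07 between the MS13 mice. The list did not move one way, as 5 of its 8 genes had log2 fold changes below 0, from -0.20 (*Ckm*, all Baf155ΔMF below all Baf155WT values) to -0.09 (*Mylpf*), and its median was -0.10. No marker had an adjusted p under 0.05 in edgeR (smallest 0.601), and their part in the antioxidant values was not tested.

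Further genes of the pathway were read in lists by role, 73 in all, of which 71 were tested (*Slc7a11* and *Gsta3* had too few counts). None had an adjusted p under 0.05 in edgeR, DESeq2 or limma-voom. At an unadjusted p under 0.05 there were 8 (11.3%), 7 lower and 1 higher, beside 7.95% of all genes tested (557 lower and 406 higher, or 764 lower and 209 higher when scaled by library size only). Their median log2 fold change was -0.06, and 45 of 71 (63.4%) were below 0, beside 50.2% of all genes tested. The count of 8 depended on single libraries. It was 22 without the MS13 Baf155WT mouse (beside 23.8% of all genes), 2 without MS15-2 (3.69%), 4 without MS15-3 (3.69%), 3 without MS13-1 (3.85%) and 2 without MS13-2 (4.6%).

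The genes listed as NRF2 regulators had a median log2 fold change of 0.13, with 8 of 10 above 0. Of all 12116 genes tested 6033 were above 0. Between the MS13 mice signs were mixed, for example -0.16 for *Mafk* and 0.12 for *Maff*. Because the list holds MAF partners of NRF2 as well as CUL3, its median has no single meaning for NRF2. *Nfe2l1*, which encodes the related factor NRF1, was the 1 gene at unadjusted p under 0.05. It had 432, 356 and 349 CPM in Baf155WT and 459, 439 and 439 CPM in Baf155ΔMF muscle, so that all Baf155ΔMF mice lay above all Baf155WT mice, the nearest being the MS13 Baf155WT mouse. Its log2 fold change was 0.23 (with an SE of 0.11 and adjusted p = 0.622) over all mice and 0.05 between the MS13 mice. *Sqstm1*, the autophagy receptor that sequesters KEAP1 and the most abundant of this list per kilobase, had a log2 fold change of -0.04 (adjusted p = 0.916).

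Among 16 further NRF2 targets tested, 9 had log2 fold changes below 0, beside 50.2% of all genes tested. At unadjusted p under 0.05 there were 3, beside 7.95% of all genes tested. *Ftl1*, the ferritin light chain, had 247, 327 and 285 CPM in Baf155WT and 193, 211 and 252 CPM in Baf155ΔMF muscle, which gave a log2 fold change of -0.39 ± 0.13 (SE, adjusted p = 0.601) and -0.29 between the MS13 mice. *Osgin1*, an oxidative stress-induced growth inhibitor, had 7.97, 6.35 and 6.51 CPM against 5.13, 4.88 and 5.96 CPM without overlap. Its log2 fold change was -0.38 (adjusted p = 0.618) and -0.65 between the MS13 mice. *Srxn1*, sulfiredoxin, which repairs overoxidized peroxiredoxins such as PRDX3, had 37.0, 37.9 and 31.1 CPM against 26.1, 27.8 and 33.6 CPM, overlapping through the MS14 mouse. Its log2 fold change was -0.28 (adjusted p = 0.617) and -0.46 between the MS13 mice. *Fth1*, the ferritin heavy chain and the most abundant of the list per kilobase, had a log2 fold change of 0.11 (adjusted p = 0.732), opposite in sign to *Ftl1*.

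Of 20 glutathione enzymes tested, 16 had log2 fold changes below 0, beside 50.2% of all genes tested. At unadjusted p under 0.05 in edgeR there were 3, beside 7.95% of all genes tested. Signs in this list were mixed between the MS13 mice, for example 0.39 for *Gstt1*, 0.20 for *Glrx3* and -0.16 for *Mgst3*. *Gstm2*, a glutathione S-transferase, had 26.2, 36.1 and 34.98 CPM in Baf155WT and 23.9, 24.5 and 21.3 CPM in Baf155ΔMF muscle, which did not overlap. Its log2 fold change was -0.48 (with an SE of 0.13 and adjusted p = 0.601) over all mice and -0.12 between the MS13 mice. *Gstp1*, another transferase, had 135, 146 and 142 CPM against 119, 119.7 and 127 CPM, also without overlap, and a log2 fold change of -0.22 (adjusted p = 0.601) that was -0.18 between the MS13 mice. Both belong to gene families, and their estimated counts had fractional parts in 3 of 6 and 6 of 6 libraries, so their values are uncertain. Shared sequence was not examined for them. *Gpx3*, the secreted glutathione peroxidase, had a log2 fold change of -0.36 (adjusted p = 0.601) and -0.36 between the MS13 mice. *Gpx4*, which reduces lipid peroxides and was the most abundant per kilobase, had a log2 fold change of -0.18 (adjusted p = 0.698) and 0.00055 between the MS13 mice.

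In the thioredoxin and peroxiredoxin list 10 of 15 genes had log2 fold changes below 0, beside 50.2% of all genes tested. *Srxn1* was the 1 gene of this list at unadjusted p under 0.05. *Txnip*, the thioredoxin inhibitor and most abundant per kilobase, had a log2 fold change of 0.13 (adjusted p = 0.824), with 739 to 1208 CPM among Baf155ΔMF mice alone. The remaining superoxide genes were *Sod3*, the extracellular dismutase (log2 fold change -0.28, adjusted p = 0.751), and *Ccs*, the copper chaperone of SOD1 (0.08, adjusted p = 0.904, and -0.23 between the MS13 mice). Glutathione and thioredoxin reductases consume NADPH. In the list of genes related to its supply, 4 of 8 had log2 fold changes below 0, beside 50.2% of all genes tested. The smallest p in that list was that of *Taldo1*, a transaldolase (-0.22, unadjusted p = 0.0506, adjusted p = 0.622), and *Idh2*, the mitochondrial isocitrate dehydrogenase and most abundant per kilobase, had -0.01 (adjusted p = 0.983).

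The genes of oxidant-producing enzymes had 7 of 7 log2 fold changes below 0, beside 50.2% of all genes tested. Their median was -0.48, with no adjusted p under 0.05. *Cybb*, the catalytic subunit of the phagocyte NADPH oxidase, had 3.69, 13.4 and 9.64 CPM in Baf155WT and 4.80, 3.74 and 6.67 CPM in Baf155ΔMF muscle. Its log2 fold change was -0.84 (with an SE of 0.38 and unadjusted p = 0.0485, adjusted p = 0.622) over all mice and 0.19 between the MS13 mice, and its highest values were those of the MS15 Baf155WT libraries, in which the leukocyte markers were also highest. *Xdh*, xanthine dehydrogenase and the most abundant of the list per kilobase, had a log2 fold change of -0.27 (adjusted p = 0.622) and 0.03 between the MS13 mice. For comparison with *Sod2* and *Prdx3*, 12 other mitochondrial proteins had a median log2 fold change of 0.03, from -0.15 to 0.11, with 0 at unadjusted p under 0.05. The most abundant of them, *Atp5b* of ATP synthase, had a log2 fold change of -0.03 (adjusted p = 0.934).

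**Figure D4:**
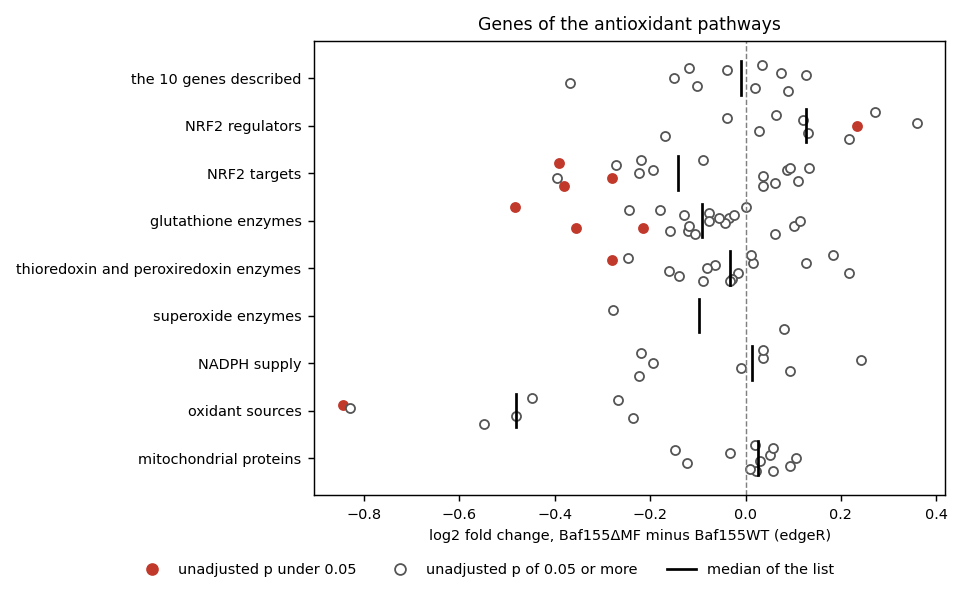
Log2 fold change (Baf155ΔMF minus Baf155WT, edgeR, horizontal axis) of each tested gene in the 10 genes described and in 8 lists of related genes (vertical axis), where filled points have an unadjusted p under 0.05 and bars mark the list medians. The list of oxidant sources lies to the left of 0, with a median of -0.48, and the 10 genes and the mitochondrial proteins centre on 0.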

How the data were processed

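Hind limb muscle RNA of 6 mice was sequenced as stranded total RNA libraries, 1 per mouse. The authors deposited expected counts, that is, estimated reads per gene symbol without normalization. The submitters' processing notes name CASAVA 1.8.2, cutadapt 1.10, Bowtie2 2.2.7, TopHat2 2.1.1, RSEM 1.2.30 and limma, and mm10 (GRCm38). The annotation used for counting is not given in the sources used here. Estimates were rounded, and 12116 of 20632 genes were kept by filterByExpr (minimum count 10, minimum total 15). Genotypes were compared with edgeR 4.0.16 (R 4.3.3) by the quasi-likelihood F test after TMM scaling, without a covariate. Benjamini-Hochberg adjustment was made over all genes tested. The fit was also run on simulated counts with the same relative spread for every gene and no difference between title prefixes. That run does not bear on how the prefixes affect the results. A level of 3 counts corresponded to 0.23 to 0.351 CPM and covers counting error only. Nothing in the labels beyond 1 title per mouse describes the replicates, so p-values measure the spread between these libraries. The same comparison was rerun with DESeq2 1.42.0, with voom from limma 3.58.1, and with other scalings, filters and a robust fit, the title prefix as a covariate, the MS13 mice alone, and leaving out each mouse. Positions and transcript lengths came from GENCODE M21 (97.4% of symbols matched). The members and lists were chosen with earlier results of these data known. Besides the 10 genes and *Smarcc1*, the text names genes of each pathway list at an unadjusted p under 0.05 (or the 1 with the smallest p), the most abundant per kilobase, and marker genes at that limit.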

Additional observations from a re-analysis of the deposited data

How the results depend on the processing

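No paired analysis was possible because the labels define no pairs of mice across genotypes. Over all genes, 3 had an adjusted p under 0.05. The count was 22 in DESeq2, 5 in limma-voom, 17 when low counts were kept, 16 when the title prefix entered the model, and 0 to 955 when 1 mouse was left out. It was 0 without the first MS15 Baf155WT mouse (MS15-2) and without MS13-2 (451 and 568 genes at an unadjusted p under 0.05), and 955 without the MS13 Baf155WT mouse. Among the 10 genes the count was 0 except without that mouse, where it was 1 (*Gpx1*), and the related pathway genes then numbered 8, against 0 otherwise. At an unadjusted p under 0.05 the 10 genes gave 1 call in DESeq2 and with low counts kept (*Gpx1*), with library size only (*Prdx3*) and with the prefix (*Txnrd1*), and 0 to 3 with 1 mouse left out. *Smarcc1* was -1.76 between the MS13 mice and -1.59 to -1.36 with 1 mouse left out, and its adjusted p was 0.0616 without MS15-2, 0.0533 without MS13-1 and 0.0678 without MS13-2. Signs turned for *Keap1* (-0.030) and *Sod2* (-0.041) with library size only. With the prefix, where genotypes are compared between the MS13 mice only, signs turned for *Nfe2l2* (-0.23), *Sod2* (-0.073) and *Cat* (-0.021). With 1 mouse left out, log2 fold changes ran from -0.00042 to 0.32 for *Nfe2l2*, from -0.031 to 0.082 for *Keap1*, from -0.029 to 0.21 for *Gclc*, from -0.10 to 0.078 for *Txnrd1*, from -0.046 to 0.079 for *Sod2* and from -0.018 to 0.18 for *Cat*. The cause was not tested.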
